A study of Sus scrofa with 32 samples.

Results

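The comparison of the methyl-enriched gestation diet with the control diet at 63 days post coitum (dpc), the middle of the sampled ages, covered 12 of the 32 arrays of the study, 6 a diet, chosen by their diet and age labels. Each array measured total RNA from the liver of Pietrain pig offspring. The gilts that carried them were fed, during gestation, either a diet enriched in methylating micronutrients or a control diet, and the labels name no other treatment or genotype. Offspring were collected from 5 to 6 gilts per stage. Unless that is a number per diet, arrays of a diet must share dams. Which dam each array belongs to is not given, and every SE, interval and p-value here counts the 6 arrays of a diet as independent. Where arrays share a dam, these are too small or too narrow. There were also 10 arrays at 35 dpc and 10 at 91 dpc, 5 a diet at each, which enter the fit and are used here only to set the 63 dpc difference beside that at the other ages. All values are deposited log2 signals, on which a difference of 1 is a doubling of the signal. Differences are methyl minus control.

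Methyl groups reach the liver's methylation reactions through the methionine cycle. Methionine adenosyltransferase makes S-adenosylmethionine, the methyl donor of DNA, histone and small-molecule methyltransferases. S-adenosylhomocysteine is left over and is split to homocysteine, which is methylated again with a methyl group from folate, with vitamin B12 as cofactor, or from betaine, or is drained into cysteine. In the fetus the liver is also the main site of blood formation, so the tissue holds many red cell precursors beside hepatocytes.

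Hepatocyte products were among the brightest signals on all 12 arrays. The 9 defining hepatocyte markers that could be tested, such as albumin (ALB), alpha-fetoprotein (AFP) and transferrin (TF), lay between 12.3 and 16.4. Their diet differences ran from -0.03 to 0.20, and 0 of the 9 reached an unadjusted p under 0.05 in limma. The mean of 13 red cell genes ran from 10.67 to 11.21 on methyl-diet arrays and from 10.75 to 11.06 on control arrays, so that the ranges overlapped nearly throughout. Of 19 lymphocyte and antigen presentation genes on the array, 9 were below the array's 40th percentile on all 12 arrays, T cell receptor components such as CD3D and CD3E among them. In bulk tissue, fewer cells of a type and less RNA per cell cannot be told apart. The spike-in controls part the arrays by how far bioC lies above bioB, by 1.39 to 1.83 on 18 arrays and by 0.16 to 0.39 on 14, referred to as the high-gap and the low-gap batch. Each batch held 3 arrays of each diet at 63 dpc. The log2 ratio of 3' to 5' signal of control probe sets, a measure of RNA integrity, ran from 1.15 to 1.93 on methyl-diet arrays and from 1.21 to 2.01 on control arrays. It went with the batch at 63 dpc, at 1.67 to 2.01 on high-gap and 1.15 to 1.49 on low-gap arrays. Arrays of a diet that follow each other in the deposited order (replicates 1 and 2, 3 and 4, 5 and 6) were more alike than other arrays of that diet, as was seen in the data and is not in the labels. Over the 200 most variable probe sets, with diet and batch means removed, the correlation across probe sets was 0.22 to 0.76 in these 6 pairs and -0.70 to 0.14 in the other 24 pairs of the same diet. Over all probe sets tested it was -0.05 to 0.63 and -0.82 to 0.38. Each consecutive pair held a high-gap and a low-gap array, while some of the other pairs lay within a batch. Removing means of few arrays lowers the correlation within a batch, so the ranges of the 2 sets of pairs are not like for like. The 0.14, the highest of the other pairs over the 200 probe sets, was between batches (methyl-diet replicates 2 and 5). Whether consecutive arrays share a dam is not given, and no fit was made with such pairs. One control array had little signal for the Y-linked gene EIF1AY, at 2.64, where the other 11 arrays lay between 6.27 and 8.81.

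No probe set passed the test for the diet at 63 dpc. Of the 15327 probe sets tested, 0 (0.00%) had a Benjamini-Hochberg adjusted p under 0.05 in limma, and the smallest adjusted p was 0.750. At an unadjusted p under 0.05 there were 219 (1.43%), 165 higher (1.08%) and 54 lower (0.352%) under the methyl diet, against 766.35 if 5% of all tests passed. The count at an unadjusted p under 0.01 was 30, against 153.27. With the spread taken from the 12 arrays of 63 dpc alone, 311 had an unadjusted p under 0.05 and 0 an adjusted one. Over all probe sets, 58.0% were higher under the methyl diet, and the median difference was 0.03. Of the 219, 218 had the same sign in both batches, which are parts of the same arrays and no separate check. The median size of a difference was 0.10, and 95% of the probe sets differed by less than 0.37. Differences of more than 1, a doubling, were found for 11 probe sets. The 95% interval of the difference lay within 1 on either side of 0 for 14258 probe sets (93.0%), and within 0.58, a 1.5-fold difference, for 9318 (60.8%). In a direct measure, the root mean square difference between 2 arrays averaged 0.55 over 36 pairs of different diet and 0.56 over 30 pairs of the same diet. Within a batch it was 0.50 for different and 0.52 for the same diet, and between batches 0.60 for different and 0.59 for the same diet.

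**Figure D1:**
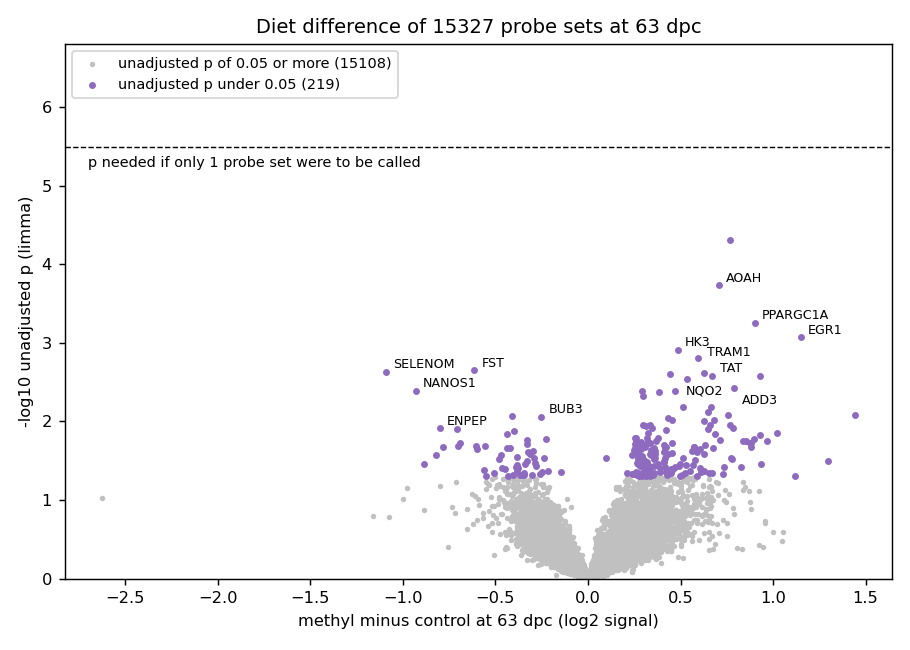
Each point is a probe set, with its methyl minus control difference in log2 signal at 63 dpc on the x axis and the -log10 of its unadjusted limma p on the y axis. The 219 probe sets with an unadjusted p under 0.05 are purple, and none of the 15327 reaches the dashed line, the p that a single call would need.

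The enzymes that make and recycle methyl groups differed little between the diets. Of the 12 genes of the methionine cycle and transsulfuration tested, 10 were higher under the methyl diet, with a median difference of 0.15, where 57.4% of all 5594 genes tested were higher and their median was 0.02. None passed the test over all probe sets, and 2 of the 12 had an unadjusted p under 0.05, MAT1A and AHCY, against 1.56% of all genes.

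MAT1A, the liver form of methionine adenosyltransferase, had a lowest, median and highest signal of 11.79, 11.97 and 12.10 on methyl-diet arrays, against 11.41, 11.74 and 11.95 on control arrays. The diets overlapped, though 5 of the 6 methyl-diet arrays lay above all 6 control arrays. The difference was 0.26 ± 0.10 (SE, 95% interval 0.05 to 0.47). AHCY, which splits S-adenosylhomocysteine, had a lowest, median and highest signal of 10.50, 10.65 and 10.98 under the methyl diet, against 9.64, 10.45 and 10.73 under control. Its difference was 0.38 ± 0.15 (SE, 95% interval 0.07 to 0.68), and 2 of the control arrays were well below the other 10. A second, dimmer AHCY probe set differed by 0.88 ± 0.57 (SE) and spanned 3.67 to 7.15 under the methyl diet and 3.34 to 6.11 under control.

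BHMT, which passes the methyl group of betaine to homocysteine, ran from 10.67 to 11.86 around a median of 11.26 under the methyl diet and from 10.45 to 11.36 around 10.87 under control, with a difference of 0.36 ± 0.29 (SE). The methyl-diet arrays shared most of their range with the control arrays. MTR, which uses folate's methyl group and vitamin B12 for the same step, differed by 0.23 ± 0.11 (SE, 95% interval -0.01 to 0.46), at dim signals of 2.83 to 3.30 under the methyl diet and 2.65 to 2.85 under control. GNMT, which burns off surplus S-adenosylmethionine by methylating glycine, was near background in both diets and differed by 0.06 (95% interval -0.36 to 0.48). CTH, the last enzyme of transsulfuration, differed by 0.08 (95% interval -0.23 to 0.39). MAT2A, the adenosyltransferase of other tissues and of fetal liver, differed by -0.12, with an interval of -0.41 to 0.18. The methyl-consuming enzymes GAMT, which makes creatine, and PEMT, which makes phosphatidylcholine, differed by 0.13 and 0.09.

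Of 15 folate genes, 9 were higher under the methyl diet, with a median of 0.07. SLC46A1, the proton-coupled folate transporter, had a lowest, median and highest signal of 7.77, 7.98 and 8.17 under the methyl diet, against 7.12, 7.75 and 7.92 under control. Its difference was 0.34 ± 0.14 (SE, 95% interval 0.05 to 0.63), the smallest p of the list, and the diets overlapped. MTHFD1, a trifunctional enzyme of the folate cycle, differed by 0.00 (95% interval -0.21 to 0.22), and SHMT1, which loads folate with serine's carbon, by -0.02 (95% interval -0.25 to 0.21). FOLR1, a folate receptor, differed by 0.22 ± 0.24 (SE). Of the 6 vitamin B12 genes, 4 were higher, with a median of 0.04 that changed sign in 6 of 27 alternative settings, and of the 8 zinc genes 6 were higher, with a median of 0.08. TCN2, the plasma carrier of vitamin B12, differed by -0.13 ± 0.21 (SE), and metallothionein MT1A, among the brightest signals at 14.5 to 15.3, by -0.08 ± 0.17 (SE). Another metallothionein, MT3, had the largest difference of the zinc list, 0.52. MT3 ran from 7.16 to 9.13 under the methyl diet and from 5.75 to 8.92 under control, lowest on the consecutive control replicates 1 and 2.

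The genes that write DNA methylation did not differ beyond their spread. DNMT1, the maintenance methyltransferase, had a lowest, median and highest signal of 10.54, 10.88 and 11.24 under the methyl diet, against 10.56, 10.98 and 11.25 under control. The ranges were almost the same, and the difference was -0.04 (95% interval -0.36 to 0.29). DNMT3A, which sets new marks, differed by 0.02 (95% interval -0.47 to 0.51), and DNMT3B, dim on these arrays, by -0.33 (95% interval -0.97 to 0.31). Of the 8 genes of DNA methylation and demethylation, 3 were higher and 0 had an unadjusted p under 0.05.

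Imprinted genes, whose parental alleles are set apart by DNA methylation, also differed little. Of 13 tested, 8 were higher, 0 had an unadjusted p under 0.05, and the median difference was 0.06, with the other sign in 4 of 27 alternative settings. IGF2, the fetal growth factor, was measured by 9 probe sets. All were higher under the methyl diet, by 0.07 to 0.41, but they measure 1 gene in the same samples and count once. The brightest had a lowest, median and highest signal of 14.36, 14.55 and 14.84 under the methyl diet, against 14.24, 14.45 and 14.78 under control. MEG3, a maternally expressed noncoding RNA, differed by -0.51 ± 0.31 (SE), PEG3 by 0.36 ± 0.24 (SE) and PEG10 by 0.06 ± 0.21 (SE). Over the methionine, folate, vitamin B12, zinc, DNA methylation and imprinted lists together, 62 genes were tested. The 95% interval lay within 1 on either side of 0 for 59 of them, and 3 (MAT1A, AHCY and SLC46A1) had an unadjusted p under 0.05, against 1.56% of all genes. For all 3, the lowest signals of either diet were those of control replicates 5 and 6, which are consecutive arrays. They were 11.41 and 11.50 for MAT1A, 9.64 and 9.91 for AHCY, and 7.49 and 7.12 for SLC46A1. The 3 genes are thus not separate observations.

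**Figure D2:**
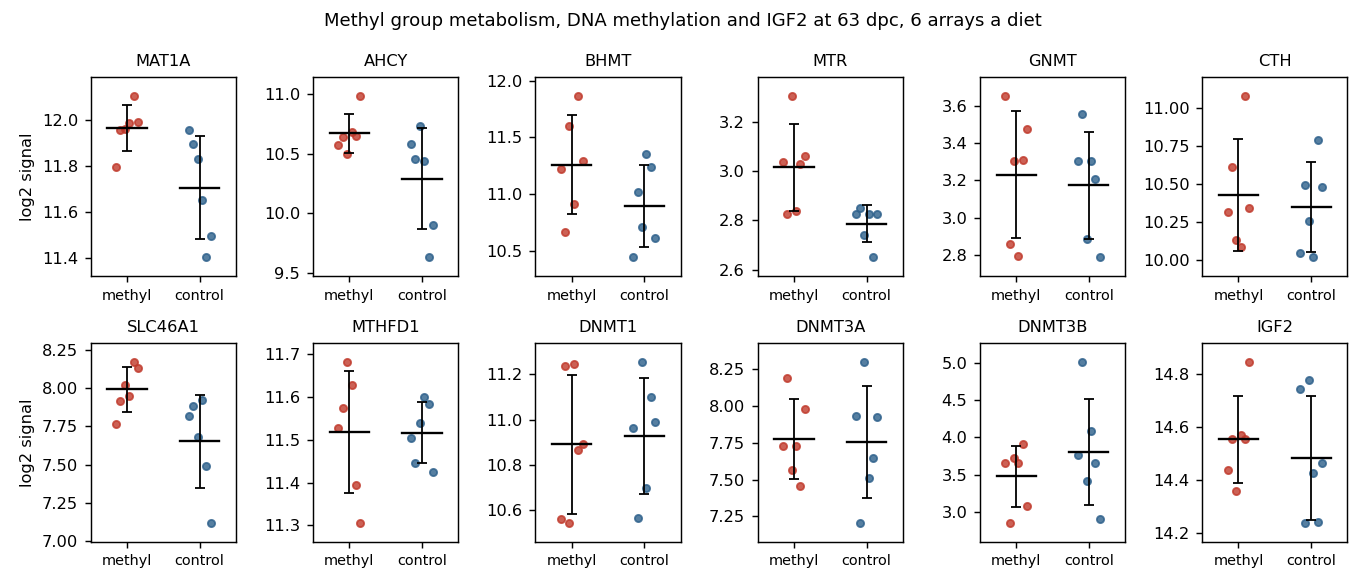
The y axis of each panel is log2 signal on a scale of its own, and each point is an array, with 6 methyl-diet arrays (red) left of 6 control arrays (blue). Horizontal bars are means and vertical bars SDs, and the diets overlap in every panel, with the methyl-diet mean of MAT1A higher by 0.26 and that of DNMT1 lower by 0.04.

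Although none passed the test, the named genes with the smallest p in each direction are described here. They were picked by p and not by the size of the difference. The 10 higher ones were AOAH, PPARGC1A, EGR1, HK3, TRAM1, TAT, ADD3, RCL1, NQO2 and TRAF3IP2, and the 10 lower ones FST, SELENOM, NANOS1, BUB3, ENPEP, AGXT2, VDAC2, ITGB1BP2, RFTN1 and AP1M1. All 20 had an adjusted limma p of 1, and so had every other gene named for its diet difference at 63 dpc. The 95% intervals given with each are not adjusted for the number of probe sets. The probe set with the smallest p of all has no gene symbol and was higher by 0.77 ± 0.16 (SE). Some of the 10 lower ones rest on dim signals. ENPEP was not above the 40th percentile on 6 methyl-diet and 2 control arrays, and RFTN1 on 5 and 2. NANOS1 was at most 3.84 except on control replicates 1 and 2, at 5.04 and 5.71. ITGB1BP2 differed by -1.05 in the high-gap and -0.17 in the low-gap batch. A brighter AP1M1 probe set differed by -0.09. A brighter RFTN1 one ran from 6.98 to 7.73 under the methyl diet and from 7.26 to 8.01 under control.

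AOAH, acyloxyacyl hydrolase, which inactivates bacterial lipopolysaccharide and is made by Kupffer cells, had a lowest, median and highest signal of 3.59, 4.51 and 4.75 under the methyl diet, against 3.41, 3.57 and 3.98 under control. All but 1 of the methyl-diet arrays were above every control array. The difference was 0.71 ± 0.17 (SE, 95% interval 0.37 to 1.05), or 1.63-fold. These signals are dim, near the array medians of 3.83 to 4.22. The 12 macrophage and Kupffer cell markers as a list had a median difference of 0.02, with 7 higher. HK3, a hexokinase of white blood cells, had a lowest, median and highest signal of 6.20, 6.38 and 6.68, against 5.70, 5.94 and 6.16 under control. The diets did not overlap, and the difference was 0.49 ± 0.14 (SE, 95% interval 0.21 to 0.76).

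PPARGC1A, a coactivator that turns on glucose production and fat burning, had a lowest, median and highest signal of 4.07, 4.59 and 4.94 under the methyl diet, against 2.72, 3.54 and 4.49 under control. The 2 highest control arrays, the consecutive replicates 5 and 6, reached into the methyl-diet range. The difference was 0.90 ± 0.23 (SE, 95% interval 0.42 to 1.38). PPARGC1A was dim too, and 1 control array lay below its 40th percentile. TAT, tyrosine aminotransferase, a classic glucocorticoid target, had a lowest, median and highest signal of 11.59, 11.99 and 12.56, against 10.95, 11.42 and 11.75 under control. Only the lowest methyl-diet array fell within the control range, and the difference was 0.67 ± 0.21 (SE, 95% interval 0.25 to 1.09), with 0.84 ± 0.33 (SE) from a second probe set. The TAT difference was 0.68 within the high-gap and 0.66 within the low-gap batch.

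EGR1, an immediate early transcription factor that rises within minutes of a stimulus, had a lowest, median and highest signal of 8.47, 8.81 and 9.28 under the methyl diet, against 7.01, 7.59 and 8.65 under control. The highest control array lay within the methyl-diet range, and the difference was 1.15 ± 0.31 (SE, 95% interval 0.52 to 1.78). A brighter EGR1 probe set differed by 1.44 ± 0.51 (SE), and another, near background, by 0.28. Of the other 14 immediate early genes tested, 7 were higher, with a median of 0.05 and none above 0.41, and FOS differed by 0.41 ± 0.29 (SE). TRAM1 shows how single probe sets can stand apart, since a dim one differed by 0.59 and its 3 brighter ones by 0.11 to 0.20.

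FST, follistatin, which binds activin, had a lowest, median and highest signal of 8.72, 8.96 and 9.26 under the methyl diet, against 9.49, 9.57 and 9.80 under control. The diets did not overlap, and the difference was -0.61 ± 0.18 (SE, 95% interval -0.99 to -0.24), with -0.33 ± 0.31 (SE) from a dimmer probe set. SELENOM, a selenoprotein of the endoplasmic reticulum, had a lowest, median and highest signal of 4.07, 4.30 and 5.42, against 4.66, 5.23 and 7.26 under control. The ranges overlapped and 2 control arrays stood high, with a difference of -1.09 ± 0.33 (SE, 95% interval -1.76 to -0.42). BUB3, a spindle checkpoint protein, differed by only -0.25 ± 0.09 (SE), yet its 6 methyl-diet arrays (10.15 to 10.42) were all below its 6 control arrays (10.46 to 10.84). AGXT2, a mitochondrial aminotransferase, was likewise lower on every methyl-diet array, by 0.40 in the mean. Of the 5 VDAC2 probe sets, 1 did not overlap and differed by -0.33, while the other 4 differed by -0.01 to -0.14.

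**Figure D3:**
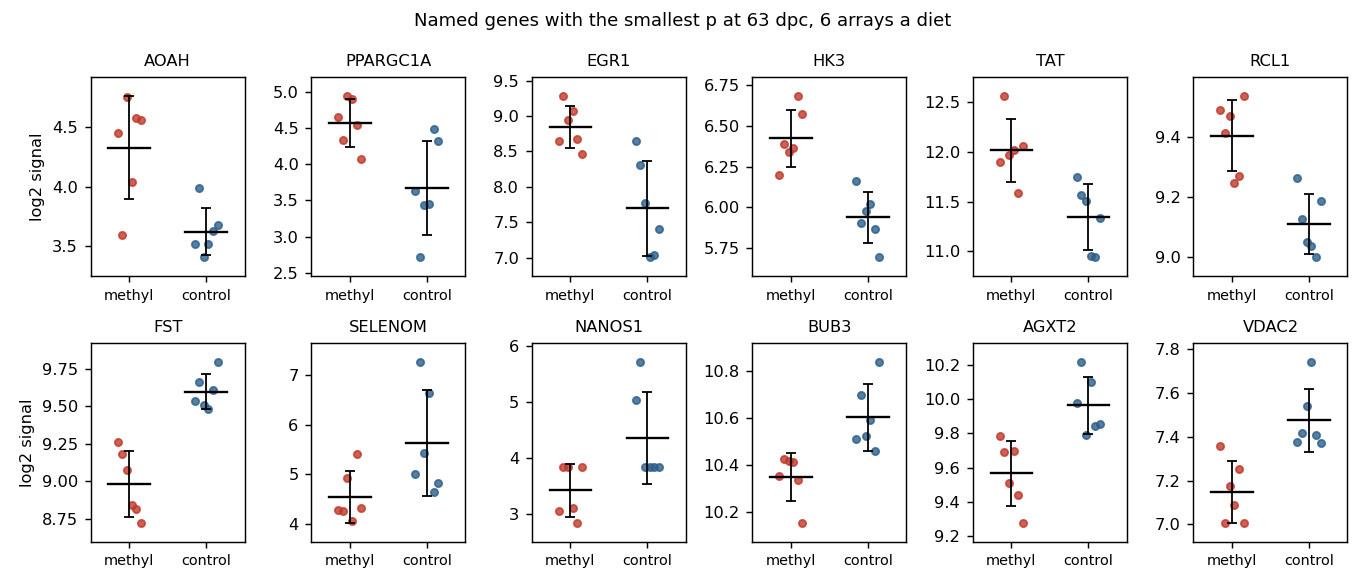
The y axis of each panel is log2 signal on a scale of its own, and each point is an array, with 6 methyl-diet arrays (red) left of 6 control arrays (blue), and bars for the mean and SD. AOAH, PPARGC1A, EGR1, HK3, TAT and RCL1 lie higher under the methyl diet, and the diets do not overlap for HK3, FST, BUB3, AGXT2 and the plotted VDAC2 probe set.

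The diets did not overlap for 13 of the 15327 probe sets (0.0848%), 8 higher and 5 lower. This share is lower than random labelling of 6 against 6 arrays would give, so lack of overlap by itself does not single out a gene. Of the 13, 9 have a gene symbol. Besides HK3, FST, BUB3, AGXT2 and VDAC2 they are HSD17B2, SUPT3H, LYPLAL1 and ALDH9A1, which are named after their values were seen. HSD17B2, which inactivates sex steroids, had a lowest, median and highest signal of 13.49, 13.61 and 13.77 under the methyl diet, against 13.29, 13.38 and 13.46 under control. ALDH9A1, an aldehyde dehydrogenase of carnitine synthesis, differed by 0.17 ± 0.10 (SE). The largest difference of all, also named after its value was seen, was TAF1D at -2.62 ± 1.52 (SE, 95% interval -5.73 to 0.48). Its signal was 3.11 to 4.26 on 4 methyl-diet and 2 control arrays and 9.03 to 10.79 on the others, so the difference rests on how many arrays of each diet were in which range. Each pair of consecutive arrays lay in 1 range, with 2 of 3 methyl-diet pairs and 1 of 3 control pairs in the lower one.

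Described by list, the genes of glucose production, amino acid breakdown and fat oxidation lay a little higher under the methyl diet. Of 14 genes of gluconeogenesis and glycogen, 12 were higher, with a median of 0.16 against 0.02 for all genes. The mean of the list ran from 8.76 to 9.0 on methyl-diet arrays and from 8.59 to 8.72 on control arrays, without overlap. The means of all other lists overlapped between the diets. This mean includes PPARGC1A and TAT, which were named above for their small p in the same comparison. The lack of overlap is thus not separate from their differences and does not single out the rest of the list. Beside PPARGC1A and TAT, which are also in other lists here, FBP1, a key enzyme of glucose production, differed by 0.32 ± 0.18 (SE). The median was 0.08 in the high-gap and 0.28 in the low-gap batch.

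Of 18 genes of amino acid breakdown and the urea cycle, 16 were higher, with a median of 0.15. An unadjusted p under 0.05 was reached by 6, all higher, where 1.56% of all genes reached it in either direction, among them TAT, GOT2, BCKDHB and ARG2. The mean of the list ran from 8.85 to 9.24 on methyl-diet arrays, inside the 8.60 to 9.39 of control arrays. Its lowest values were those of the consecutive control replicates 5 and 6, at 8.62 and 8.60. GOT2, the mitochondrial aspartate aminotransferase, had a lowest, median and highest signal of 11.78, 12.02 and 12.12 under the methyl diet, against 11.48, 11.75 and 11.86 under control. The ranges touched only at the lowest methyl-diet array, and the difference was 0.30 ± 0.10 (SE, 95% interval 0.10 to 0.49). Of 28 genes of fatty acid oxidation and ketone bodies, 25 were higher, with a median of 0.11. CPT1A, the gate of fatty acid entry into mitochondria, had a lowest, median and highest signal of 7.32, 7.63 and 8.23 under the methyl diet, against 6.95, 7.06 and 7.57 under control. Only the highest control array reached into the methyl-diet range. The difference was 0.51 ± 0.17 (SE, 95% interval 0.15 to 0.87). SLC25A20, which carries acylcarnitines across the inner membrane, differed by 0.30 ± 0.14 (SE).

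Of 14 genes of the glucocorticoid response and clock, 11 were higher, with a median of 0.10, and 3 had an unadjusted p under 0.05, where 57.4% of all genes were higher and 1.56% had such a p. These were TAT, TSC22D3, a glucocorticoid-induced leucine zipper protein, at 0.31 ± 0.12 (SE), and the clock gene ARNTL at 0.28 ± 0.14 (SE). The 34 hepatocyte secreted proteins as a list had a median of 0.05, with 28 higher.

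All 11 neutrophil and granulocyte genes tested were higher, with a median of 0.37, the highest of the 37 lists, and 3 had an unadjusted p under 0.05, against the same 57.4% and 1.56% of all genes. LTF, lactoferrin of secondary granules, had a lowest, median and highest signal of 9.62, 10.03 and 10.34 under the methyl diet, against 9.02, 9.42 and 9.84 under control. The ranges overlapped and the difference was 0.57 ± 0.24 (SE, 95% interval 0.09 to 1.05). S100A12 and S100A8, calgranulins of neutrophils, differed by 0.86 ± 0.34 and 0.73 ± 0.34 (SE). The S100A12 difference was 1.60 in the high-gap and 0.11 in the low-gap batch, and that of S100A8 1.08 and 0.39. The mean of the list ran from 9.22 to 9.81 on methyl-diet arrays and from 8.80 to 9.35 on control arrays, so that the diets overlapped. Genes made by the same cells vary together, so the list's count is not 11 separate observations, and the part that the number of granulocytes in the samples plays was not tested.

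Some lists leaned the other way. Of 22 complement and acute phase genes, 7 were higher, with a median of -0.06, and C3, the central complement component, had a lowest, median and highest signal of 13.44, 13.89 and 14.39, against 14.19, 14.30 and 14.55 under control. Only the highest methyl-diet array lay within the control range of C3, and the difference was -0.43 ± 0.21 (SE), with -0.23 in the high-gap and -0.63 in the low-gap batch. Of 30 proteasome genes 9 were higher, and of 28 genes of the cell cycle and DNA replication 9 were higher, with medians of -0.03 and -0.05, whose sign changed in 1 and 2 of 27 alternative settings. The remaining lists, among them ribosomal proteins, oxidative phosphorylation, glycolysis, cholesterol synthesis and interferon-induced genes, had medians between -0.05 and 0.11.

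**Figure D4:**
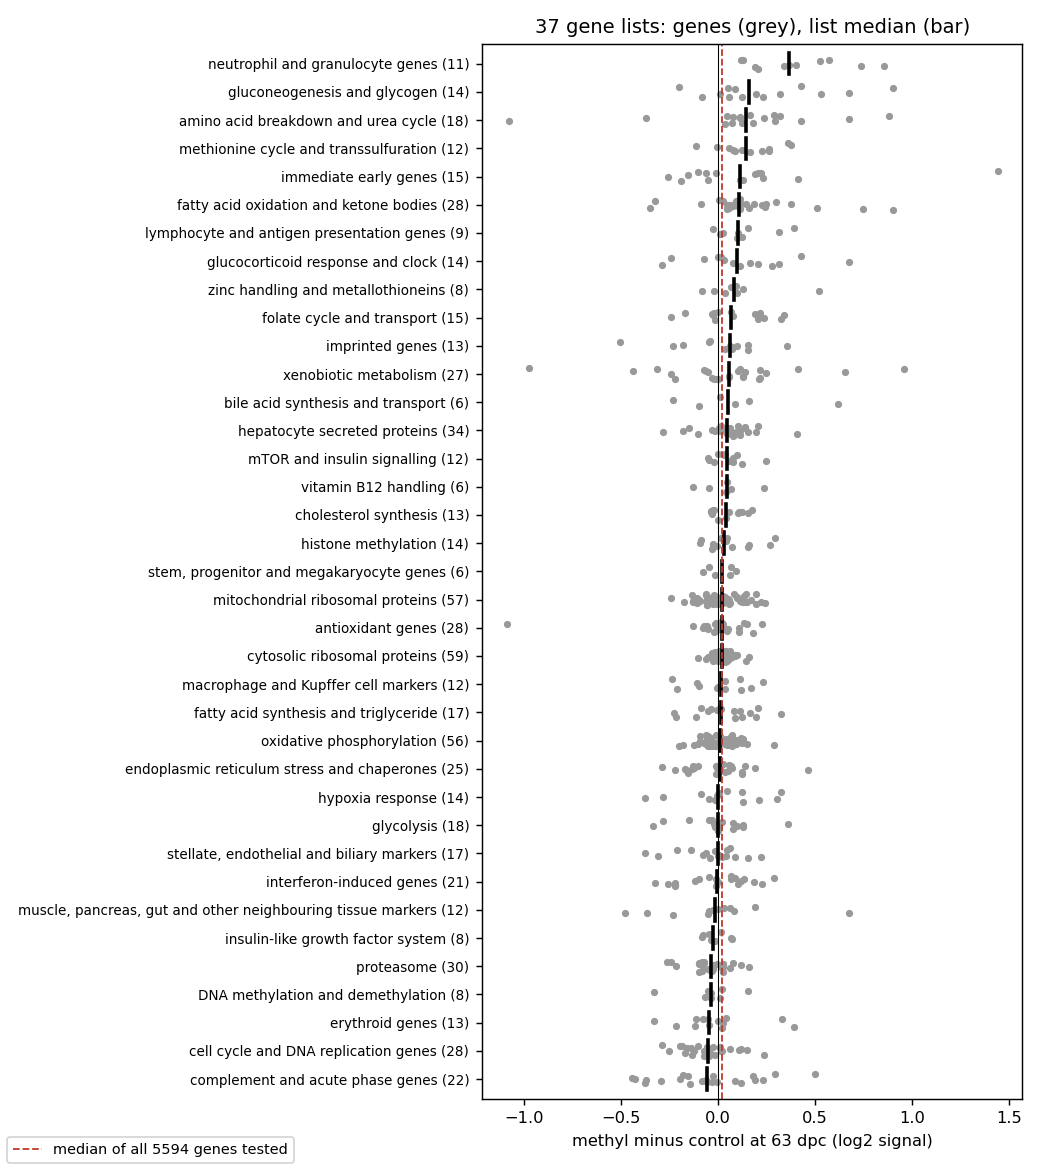
The x axis is the methyl minus control difference in log2 signal at 63 dpc, each row is a gene list with its number of genes tested in brackets, grey points are genes (brightest probe set) and black bars list medians. The neutrophil list has the highest median, 0.37, and the complement list the lowest, -0.06, while the median of all genes is 0.02 (dashed).

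At the other ages the diet comparison gave 6 calls at 35 dpc (0.0391%) and 11 at 91 dpc (0.0718%) in the same limma fit, and 0 at 63 dpc. The counts at an unadjusted p under 0.05 were 933 (6.09%) at 35 dpc, 219 (1.43%) at 63 dpc and 1000 (6.52%) at 91 dpc. Among these, 63 dpc has 6 arrays a diet and the others 5. A test of the difference itself made 0 calls for 63 minus 35 dpc (0.00%, 507 or 3.31% at an unadjusted p under 0.05) and 0 for 63 minus 91 dpc (0.00%, 753 or 4.91%). The ages do not share arrays. The 17 calls of the other ages were all smaller in size at 63 dpc, and at most 1.12. They were picked for their differences at those ages, so a smaller one at 63 dpc is no separate result. Several, such as probe sets of SATB1, CA3 and SPARCL1, were not above the 40th percentile on any 63 dpc array.

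The smallest adjusted p of these tests was 0.0819, for DDX39B, an RNA helicase, whose difference was 1.12 ± 0.55 (SE) at 63 dpc and -3.35 at 91 dpc by 1 probe set. A second, brighter DDX39B probe set differed by -0.02 at 63 dpc and 0.002 at 91 dpc. Its 63 minus 91 dpc difference was -0.02 ± 0.19 (SE), so the age difference was seen by the dimmer probe set only. TAT differed by -0.15 at 35 dpc, 0.67 at 63 dpc and -0.69 at 91 dpc, and its 63 minus 91 dpc difference was 1.36 ± 0.30 (SE), with an adjusted p = 0.312 in limma. FST was lower under the methyl diet at every age, by 0.57 at 35 dpc, 0.61 at 63 dpc and 0.31 at 91 dpc. PPARGC1A differed by -0.04 at 35 dpc and 0.03 at 91 dpc, EGR1 by -0.03 and -0.35.

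**Figure D5:**
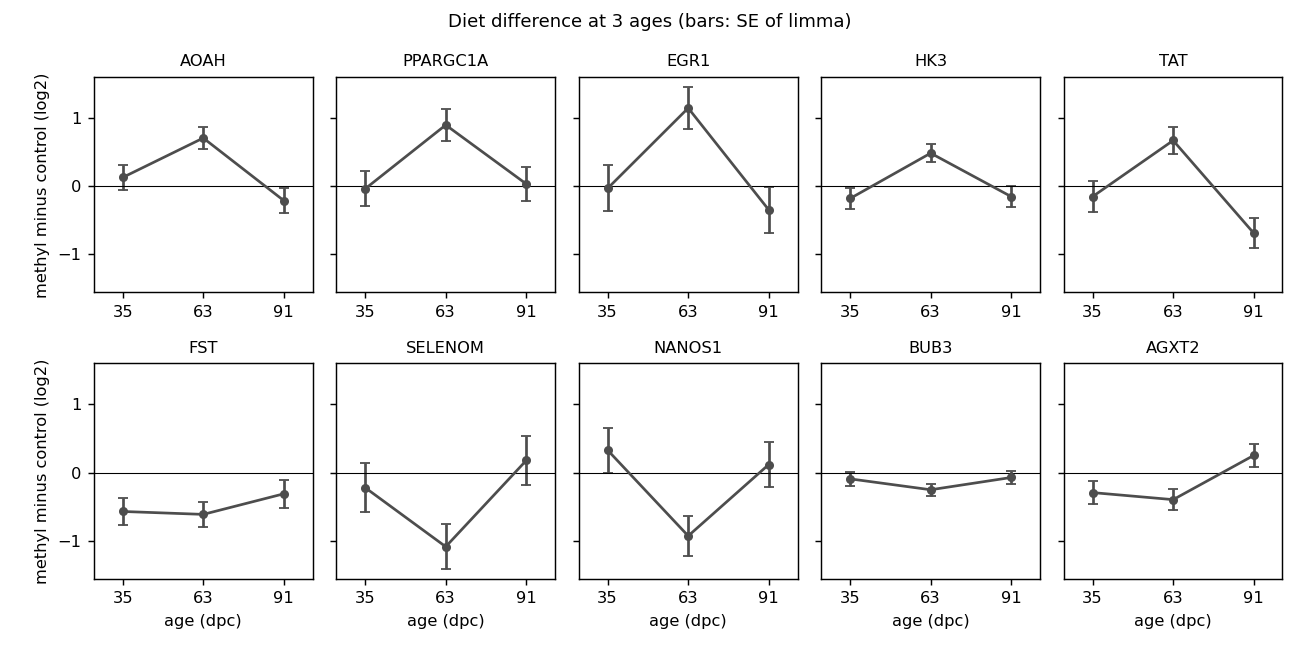
Each panel shows the methyl minus control difference in log2 signal on the y axis at 35, 63 and 91 dpc on the x axis, with bars for the SE of the limma fit (5, 6 and 5 arrays a diet). TAT is highest at 63 dpc (0.67) and lies at -0.69 at 91 dpc, and FST lies below 0 at all 3 ages.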

How the data were processed

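Per the labels' protocols, liver RNA was hybridised to a porcine expression array, 1 sample per array. Per the submitters' processing notes GCOS 1.1.1 was used, in a role not given. The values deposited are log2 signals, from 2.20 to 16.6, already comparable between arrays (medians 3.83 to 4.22), by a method not given in the sources used here, and were used as deposited. Of 23999 probe sets other than 124 control ones, 15327 lay above the array's 40th percentile in at least 5 arrays and were tested. limma 3.58.1 in R 4.3.3 estimated 6 means, 1 per combination of diet and age, over 32 arrays, with an intensity trend, and p-values were Benjamini-Hochberg adjusted over all probe sets tested. Symbols came from the array annotation, 1 for 10099 probe sets, several for 198 and none for 13826, and 9989 matched RefSeq. A gene in a list is its brightest probe set.

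Named genes were the 10 with the smallest p in each direction, up to 4 a list by p, any gene of the 6 methyl and imprinted lists, and up to 5 per age contrast. The members and lists were chosen with earlier results of these data known. Samples are not tied to dams, so p-values measure only the spread between these samples, some of which may share a dam. The batches were found in the data. Alternatives are given at the end. The fit was also tested on simulated data with independent arrays and no batch, which does not cover the likeness of consecutive arrays.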

Additional observations from a re-analysis of the deposited data

Results flagged for a closer look

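Within the 6 arrays of a diet, 162 groups of values (44 genes and 37 lists, 2 diets) were checked for a single array far from the others by Dixon's test at its 95% critical value. Chance alone gives about 1 in 20, and 6 were found. Methyl-diet replicate 6 was far below the other methyl-diet arrays for BUB3, at 10.15 against 10.33 for the nearest. It was far above them for ITGB1BP2, at 3.57 against 3.25. Methyl-diet replicate 5 was above the others for ENPEP, at 2.35 against 2.22, and for RFTN1, at 2.84 against 2.63, both near background. The mean of the insulin-like growth factor system was low in control replicate 5, at 7.25 against 7.42 for the nearest, and that of stem, progenitor and megakaryocyte genes was low in methyl-diet replicate 3, at 7.60 against 7.85.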

How the results depend on the processing

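The diet difference at 63 dpc gave 0 calls in all 27 alternatives run, 15 settings and 12 fits that leave out 1 array of 63 dpc each (range 0 to 0), with a lowest adjusted limma p of 0.113 and 0.0765 in these sets and counts of 91 to 534 and 189 to 413 at an unadjusted p under 0.05. The 63 dpc arrays alone gave 311 and the batch block 299 at that level, and 0 calls each. The 63 minus 35 dpc difference had 2 calls with array weights. The 63 minus 91 dpc difference had 2 calls with array weights, 1 at a threshold of 0.10, 1 with the batch blocked, 3 for the high-gap batch alone and 2 for the low-gap one alone, 1 with EIF1AY, 1 with the 3' to 5' ratio and 3 with the erythroid mean as a covariate, and 0 to 1 when 1 array was left out (1 without control replicate 1, control replicate 6 or methyl replicate 1). The DDX39B difference, by the dimmer of its 2 probe sets, made the single call in these 3 fits. The cause of these changes was not tested. No gene reversed over 1427 values of 54 results. These 54 were picked for their small p in the same arrays, so an unchanged sign is no separate check. Of 999 list medians 5 moved by more than 1 SD of the list's mean between arrays of a diet: glucocorticoid 0.20 (high-gap), gluconeogenesis 0.08 (high-gap) and 0.28 (low-gap), folate 0.19 (low-gap) and imprinted -0.05 without control replicate 5. The sign of the median changed in at least 1 of 27 alternatives for 21 of the 37 lists (120 values), among them endoplasmic reticulum stress (15 of 27), glycolysis (13), vitamin B12 (6), imprinted genes (4), cell cycle (2) and proteasome (1), so the direction of these small medians is not settled. The folate median ran from 0.00 to 0.19, and that of neutrophil genes from 0.27 to 0.49. No paired analysis was possible because the labels give no replicate numbers that the diets share. The number of arrays and signals near background limit the precision.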
